A study of Mus musculus with 8 samples.

Results

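The 50 genes described here act in mitosis, the stage of the cell cycle in which duplicated chromosomes are condensed, attached to the spindle and separated. They were chosen by symbol, and where a gene had several probe sets the brightest on average was read. A probe set was found for 49 of the 50, among 18193 genes with a probe set in all, and Ccnb1 was not analysed here. The 49 genes were read on 8 Affymetrix arrays, each from CD4+ T cells of mice with an EGFP-tagged Foxp3 allele, sorted by green fluorescence. Foxp3 is the X-linked transcription factor of regulatory T cells, and the design text names hemizygous males as the source of the tagged cells. The groups were mutant EGFP-positive (the allele named delta in the labels, n = 3), mutant EGFP-negative (n = 1), WT EGFP-positive (n = 3) and WT EGFP-negative (n = 1). Every group thus carried the EGFP tag, while the sources used here do not give strain, age, organ, pooling of animals or the nature of the delta change. Whether replicates are separate animals is not stated, so p-values measure the spread between these arrays, which may be technical.

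Entry into mitosis is driven by Cdk1 bound to cyclins A and B. Aurora and Polo-like kinases then build the spindle, the checkpoint kinases hold chromosome separation until every kinetochore is attached, and the anaphase-promoting complex ends the stage by marking cyclin B and securin for destruction. Resting T cells hold few of these transcripts, and T cells driven into division make them together late in the cycle. Transcription of many of them is known to run through CCAAT boxes, bound by NF-Y, and through the cell cycle genes homology region, typically TTTGAA, bound by the MuvB complex with B-Myb and FoxM1 in dividing cells and with pocket proteins in resting ones.

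Promoter sequences were found in the RefSeq table for 41 of the 50 genes, in 43 windows of 300 bases (250 before to 50 after the start, build GRCm38.p6). TTTGAA was present on either strand in 74.4% of these windows, against 17.9% of the 32851 windows of all genes. CCAAT was present in 74.4%, against 37.4% of all windows and 38.2% of the 21263 windows of coding genes. The related TTTAAA, which reads alike on both strands, was present in 20.9%, against 13.2% of all windows. CCAAT together with TTTGAA or TTTAAA was found in 69.8% of the windows, against 10.7% of all windows. Among other motifs searched, TATAAA was present in 2.3% against 13.6% of all windows, TTCGAA in 7.0% against 1.6%, and TTTCGCG in 4.7% against 0.8%. Overlapping matches were kept, and a match is a description of letters, not a site. Members' windows had a median GC content of 58.7%, against 52.7% for all windows, which were not matched on it.

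Promoters of 8 genes are shown over the 180 bases before the start, 5′ to 3′ on the gene's strand, with the CCAAT letters and those of TTTGAA and its TTTAAA variant in capitals in either orientation. Depdc1a is shown for its large difference between the EGFP-positive groups, and Ccnb2, Cdk1, Cdc20 and Ube2c are examples with both kinds of letters that rose. Kif15 is the member that did not pass the test. Nuf2 and Pttg1 rose and are 2 of 6 genes, with Nusap1, Ncaph, Melk and Mad2l1, whose windows held none of the 3 motifs.
Depdc1a (chr3:159495253-159495432, plus strand): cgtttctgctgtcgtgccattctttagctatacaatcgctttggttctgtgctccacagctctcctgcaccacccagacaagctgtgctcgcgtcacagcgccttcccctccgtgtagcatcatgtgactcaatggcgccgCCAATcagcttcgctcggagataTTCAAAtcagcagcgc
Ccnb2 (chr9:70421555-70421734, minus strand): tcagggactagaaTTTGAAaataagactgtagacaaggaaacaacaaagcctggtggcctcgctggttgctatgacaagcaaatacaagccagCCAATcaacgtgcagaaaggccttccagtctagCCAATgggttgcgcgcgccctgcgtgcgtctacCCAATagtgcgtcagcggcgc
Cdk1 (chr10:69352913-69353092, minus strand): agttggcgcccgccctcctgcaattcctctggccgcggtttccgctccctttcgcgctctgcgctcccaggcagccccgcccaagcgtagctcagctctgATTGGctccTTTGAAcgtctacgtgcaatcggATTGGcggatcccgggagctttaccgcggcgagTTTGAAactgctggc
Cdc20 (chr4:118437344-118437523, minus strand): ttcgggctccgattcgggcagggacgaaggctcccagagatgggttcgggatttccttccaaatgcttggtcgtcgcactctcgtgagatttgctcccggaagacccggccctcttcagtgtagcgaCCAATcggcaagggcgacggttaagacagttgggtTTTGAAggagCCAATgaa
Ube2c (chr2:164769749-164769928, plus strand): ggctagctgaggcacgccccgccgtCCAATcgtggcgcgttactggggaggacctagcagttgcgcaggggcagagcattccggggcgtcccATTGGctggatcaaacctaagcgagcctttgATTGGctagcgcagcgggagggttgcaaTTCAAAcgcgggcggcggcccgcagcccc
Kif15 (chr9:122950901-122951080, plus strand): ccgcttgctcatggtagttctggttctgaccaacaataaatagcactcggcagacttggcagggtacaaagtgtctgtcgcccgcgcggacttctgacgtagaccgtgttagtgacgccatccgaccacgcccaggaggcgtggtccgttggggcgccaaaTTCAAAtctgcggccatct
Nuf2 (chr1:169531465-169531644, minus strand): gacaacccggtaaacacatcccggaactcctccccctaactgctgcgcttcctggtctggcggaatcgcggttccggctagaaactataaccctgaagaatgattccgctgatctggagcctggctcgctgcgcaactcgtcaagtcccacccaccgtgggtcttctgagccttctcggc
Pttg1 (chr11:43425982-43426161, minus strand): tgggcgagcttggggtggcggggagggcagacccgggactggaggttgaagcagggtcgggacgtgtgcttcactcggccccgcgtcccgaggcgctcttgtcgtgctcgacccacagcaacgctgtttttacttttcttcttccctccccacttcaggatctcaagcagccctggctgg
In Kif15 the TTTGAA letters stood on the other strand 19 bases upstream of the start, and no CCAAT was found. They also stood on the gene's strand 234 bases upstream, outside the bases shown. Cdk1 held TTTGAA 15 and 71 bases upstream, and Cdc20 held it 18 bases upstream between CCAAT letters. Kif15 shared TTTGAA with members that rose, and Nuf2 and Pttg1 rose without any of these letters in the window. These genes were picked by their result, and Kif15 was read by a single dim probe set. Whether the letters bear on the rise was not tested.

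Foxp3 itself was read first, as the targeted gene. Its probe set stood at 11.10, 11.51 and 11.21 (log2 intensity) in the arrays labelled mutant EGFP-positive and at 6.14 in mutant EGFP-negative, against 4.75, 4.86 and 4.64 in WT EGFP-positive and 4.52 in WT EGFP-negative. The low Foxp3 reading in the arrays labelled WT EGFP-positive goes against their label, although the Treg markers as a list, given below, were higher there than in WT EGFP-negative cells. The sources used here do not place the Foxp3 probe set against the change made to either allele. Every direction between alleles below therefore rests on the labels. The T cell marker Cd3e read 12.04 to 12.70 in mutant EGFP-positive, 12.45 in mutant EGFP-negative, 12.68 to 12.81 in WT EGFP-positive and 12.66 in WT EGFP-negative arrays, and Cd4 read 11.28 to 11.35, 11.40, 11.07 to 11.20 and 11.42 in the same groups. Of the 6 T cell markers measured 5 were lower and 1 higher in mutant than in WT EGFP-positive arrays. In the test described below 2 of them passed as lower, as did 5.39% of all probe sets. Their mean was 11.88 to 12.00 in mutant EGFP-positive and 11.99 in mutant EGFP-negative arrays. In WT EGFP-positive and EGFP-negative arrays it was 12.10 to 12.19 and 12.15. The Treg factor Ikzf2 read 12.09 to 12.12 in mutant EGFP-positive and 11.48 in mutant EGFP-negative cells, against 12.09 to 12.26 in WT EGFP-positive and 7.98 in WT EGFP-negative cells. Of the 6 Treg markers 5 were lower in mutant than in WT EGFP-positive arrays, 1 of them passing the test. Foxp3 passed as higher (6.52), and the median difference was -0.24. The list mean was 10.40 to 10.75 in mutant EGFP-positive and 8.62 in mutant EGFP-negative arrays. In WT EGFP-positive and EGFP-negative arrays it was 9.61 to 9.92 and 6.66. Between these WT fractions all 6 Treg markers were higher in EGFP-positive arrays (median difference 3.30), and 5 of them passed the test. Over all probe sets 0.706% were called higher in that comparison.

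The first comparison asks how cells sorted EGFP-positive differ between the mutant and the wild-type allele. In the mutant EGFP-positive arrays 47 of the 49 mitosis and spindle genes rose, 1 (Smc4) fell and 1 (Kif15) did not pass, with limma's test adjusted over all 45037 probe sets at a threshold of 0.05. Over all probe sets 12.7% were called, 7.35% higher and 5.39% lower in the mutant arrays. Over all 18193 genes 1897 were called higher and 1096 lower. The median difference of the 49 genes was 2.66 on the log2 scale, 6.34-fold, against 0.02 for all 18193 genes. In 47 of the 49 all 3 mutant arrays lay above all 3 WT arrays, as they did in 15.6% of all probe sets. The number of arrays limits the precision, and an exact permutation test of 3 against 3 arrays could not go below 0.1. RNA was measured in bulk, so more cells in mitosis and more of these transcripts per cell cannot be told apart.

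**Figure D1:**
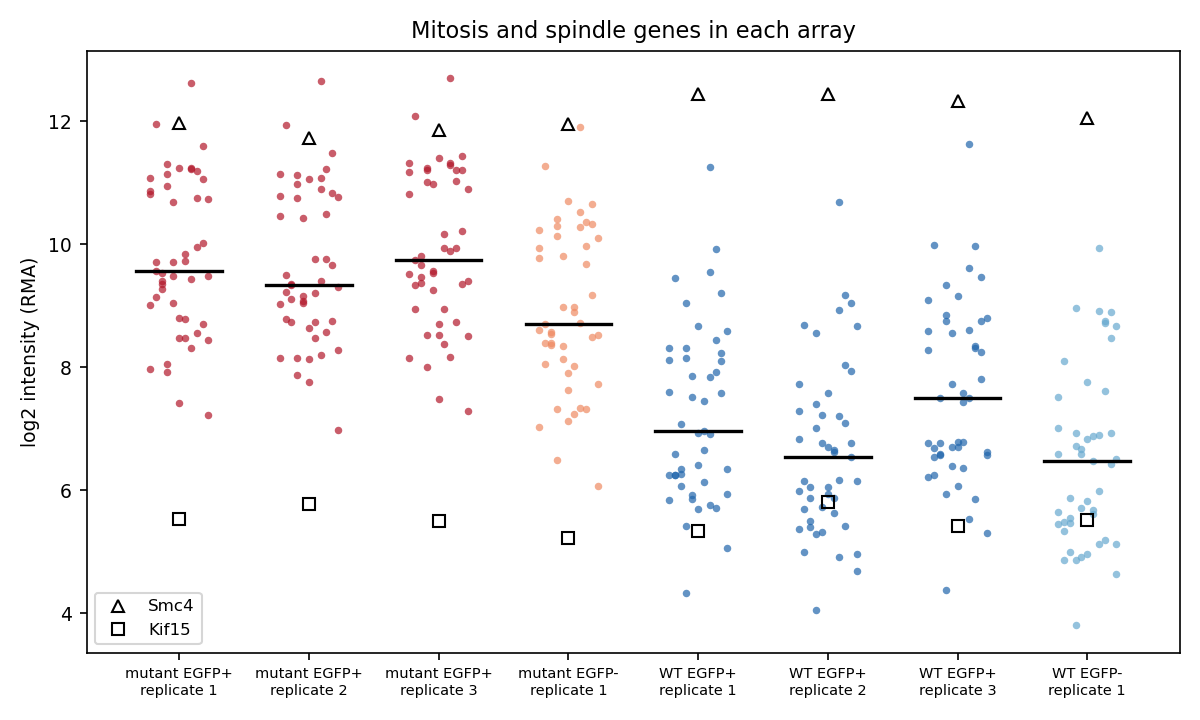
Log2 intensity of the 49 mitosis and spindle genes (points) in each of the 8 arrays, with the median of each array as a black line. The medians were 9.57, 9.35 and 9.75 in mutant EGFP-positive, 8.70 in mutant EGFP-negative, 6.97, 6.54 and 7.50 in WT EGFP-positive and 6.48 in WT EGFP-negative arrays; Smc4 and Kif15 are drawn as open symbols and do not follow that shift.

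All 10 measured genes of mitotic entry rose, by 0.75 to 3.31. Cdk1, the kinase that drives entry, stood at 10.87, 10.46 and 11.17 in mutant EGFP-positive arrays, against 7.60, 6.83 and 8.28 in WT EGFP-positive arrays. The groups were far apart, although WT replicate 3 lay 1.45 above WT replicate 2. The difference was 3.27 (9.61-fold, SE 0.35, limma adjusted p = 0.0011). Its partner cyclin A2, Ccna2, averaged 11.20 ± 0.11 in mutant and 7.89 ± 0.71 in WT cells (SD, n = 3 each; difference 3.31, adjusted p = 0.00063). Cyclin B2, Ccnb2, whose promoter is shown above, averaged 11.21 ± 0.08 in mutant and 8.19 ± 0.73 in WT cells (SD, n = 3 each; difference 3.02, adjusted p = 0.0011). In each of these genes the SD was larger in the WT than in the mutant group.

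Plk1, the Polo-like kinase that acts from entry to cytokinesis, rose by 2.51, and Aurka, the centrosomal Aurora kinase, by 2.31. Cdc25c, the phosphatase that switches Cdk1 on, rose by 2.15 and Nek2, which splits the centrosomes, by 2.96. Melk, a kinase of dividing cells, rose by 2.95. Bora, the cofactor through which Aurora A activates Plk1, and Foxm1, the transcription factor of G2 and mitosis genes, showed smaller differences. Bora stood at 8.70, 8.75 and 9.36 in mutant EGFP-positive arrays, against 8.24, 7.93 and 8.26 in WT EGFP-positive arrays (difference 0.79, limma adjusted p = 0.036). That call was lost when any single EGFP-positive array was left out (adjusted p 0.055 to 0.087), and a second Bora probe set differed by 2.02. Foxm1 stood at 7.43, 7.76 and 7.49 in mutant, against 6.94, 6.70 and 6.79 in WT arrays (difference 0.75, adjusted p = 0.0091), while its other probe sets differed by 0.91, 1.61 and 0.09.

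**Figure D2:**
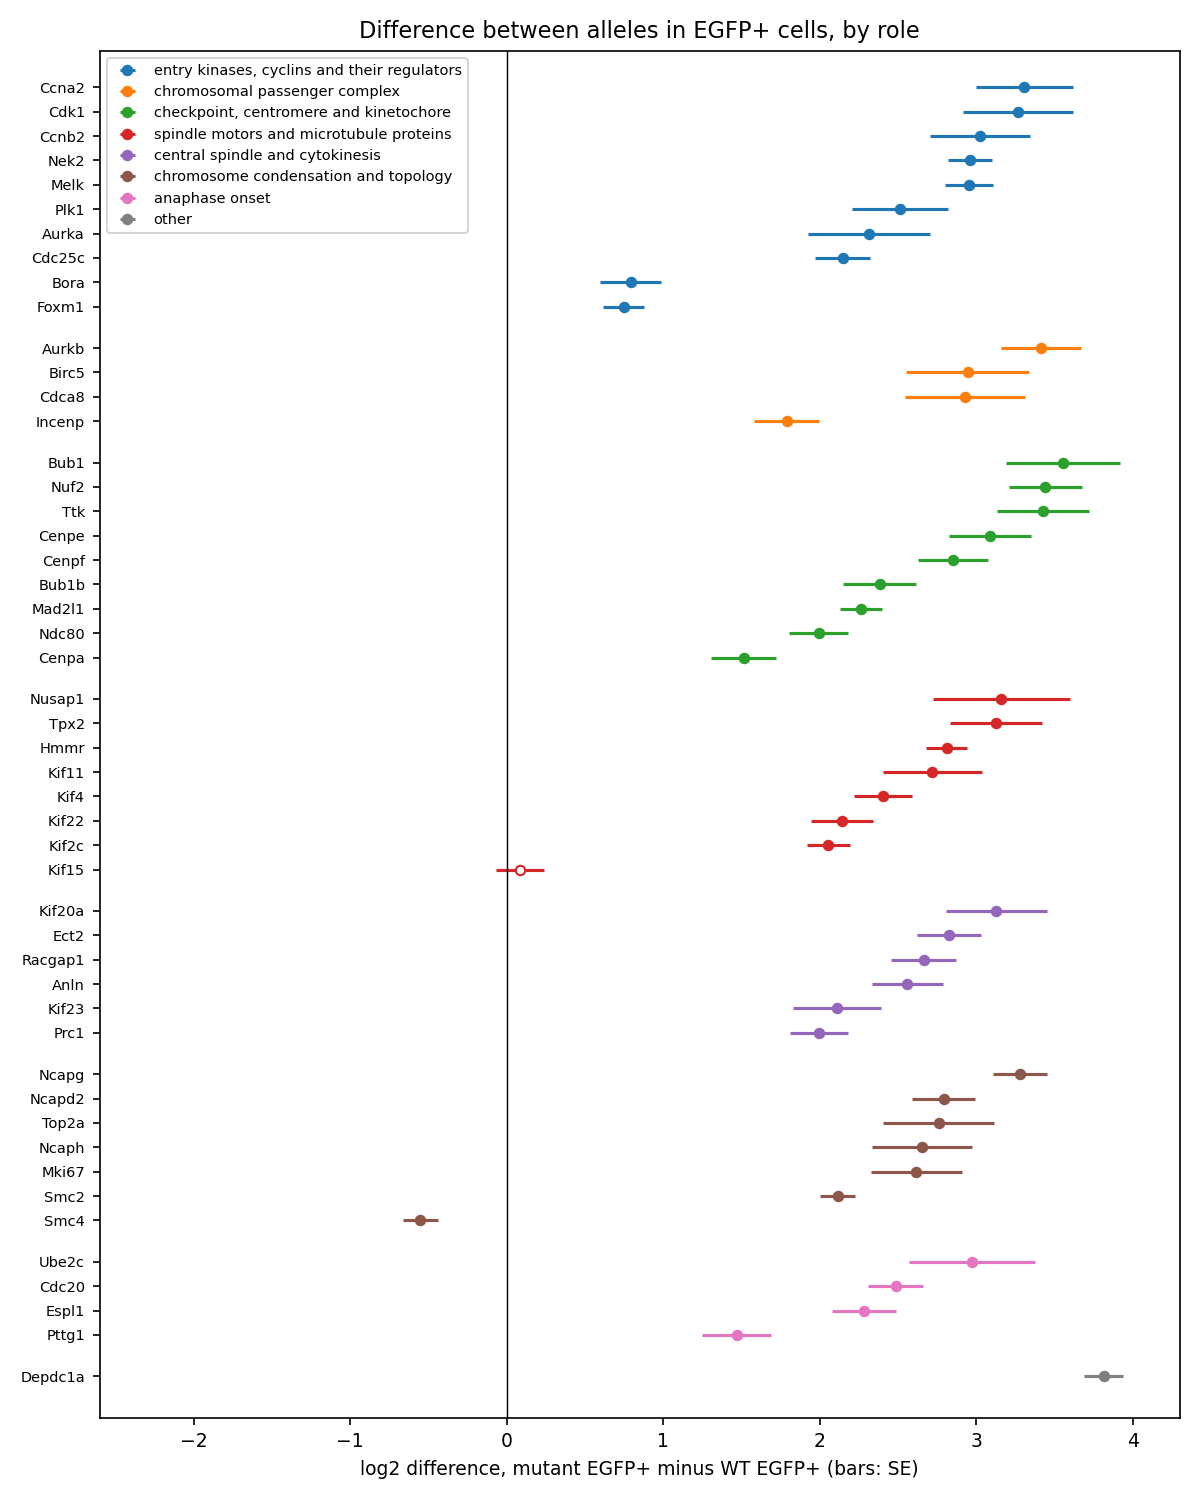
Log2 difference between mutant and WT EGFP-positive cells for each member, ordered by role and size, with the SE of limma's fit as bars; filled points passed the test. Every gene but Smc4, at -0.55, lies right of 0, and Kif15, at 0.08, is the open point.

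The chromosomal passenger complex corrects wrong attachments and later directs cytokinesis, and its 4 genes all rose. Aurkb, its kinase, stood at 9.48, 9.07 and 9.25 in mutant EGFP-positive arrays, against 5.85, 5.32 and 6.39 in WT EGFP-positive arrays (difference 3.41, SE 0.26, limma adjusted p = 0.00027). Birc5 (survivin) rose by 2.94 and Cdca8 (borealin) by 2.93, the subunits that place the kinase at the centromere. Incenp, the scaffold, rose by 1.79.

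All 9 checkpoint, centromere and kinetochore genes rose, by 1.51 to 3.55. Bub1, a checkpoint kinase at the kinetochore, stood at 9.49, 9.30 and 9.40 in mutant EGFP-positive arrays, against 5.94, 4.96 and 6.62 in WT EGFP-positive arrays. The difference was 3.55 (11.7-fold, SE 0.36, adjusted p = 0.00088). Ttk, the kinase at the head of the checkpoint, stood at 9.35, 9.36 and 9.81 in mutant arrays, against 6.27, 5.40 and 6.57 in WT arrays (difference 3.43, adjusted p = 0.00042). For both genes WT replicate 2 was the lowest of the 6 arrays. Nuf2 and Ndc80, partners in the complex that grips microtubules, rose by 3.44 and 1.99. Mad2l1 and Bub1b, which form part of the inhibitor of the anaphase-promoting complex, rose by 2.26 and 2.38, and the kinesin Cenpe and the large coiled-coil protein Cenpf by 3.09 and 2.85. Cenpa, the histone that marks centromeres, averaged 11.20 ± 0.02 in mutant and 9.69 ± 0.45 in WT cells (SD, n = 3 each; difference 1.51, adjusted p = 0.0034). Other Cenpa probe sets differed by -0.39 and -0.06, and with the mean of all its probe sets the call was lost (difference 0.35, adjusted p = 0.36).

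Of 8 spindle motors and microtubule proteins 7 rose, by 2.06 to 3.16. Tpx2, which activates Aurora A on the spindle, stood at 9.40, 9.12 and 9.47 in mutant EGFP-positive arrays, against 6.35, 5.50 and 6.76 in WT EGFP-positive arrays (difference 3.12, adjusted p = 0.00063). Nusap1, a microtubule bundler, rose by 3.16, Hmmr by 2.81, and Kif11, the motor that pushes the spindle poles apart, by 2.72. The chromosome-bound motors Kif4 and Kif22 rose by 2.40 and 2.14, and the depolymerase Kif2c by 2.06. Kif15, which backs up Kif11 in holding the spindle bipolar, stood at 5.53, 5.79 and 5.50 in mutant arrays, against 5.34, 5.80 and 5.42 in WT arrays. The groups overlapped, and the difference of 0.08 (adjusted p = 0.82) had a 95% interval from -0.27 to 0.44. Kif15 had a single probe set whose mean lay under the median of all probe sets, and no detection call was used here.

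The 6 genes of the central spindle and cytokinesis rose by 1.99 to 3.13. Kif20a, the motor that carries the passenger complex to the midzone, averaged 8.96 ± 0.17 in mutant and 5.83 ± 0.72 in WT EGFP-positive cells (SD, n = 3 each; difference 3.13, limma adjusted p = 0.00092). Racgap1 and Kif23, which together form centralspindlin, rose by 2.66 and 2.11. Ect2, which activates RhoA at the furrow, rose by 2.83, Anln (anillin) by 2.56, and the bundler Prc1 by 1.99.

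Chromosome condensation held the exception. Condensin I consists of Smc2, Smc4, Ncapd2, Ncapg and Ncaph, and 4 of these 5 genes rose. Ncapg stood at 9.54, 9.35 and 9.67 in mutant EGFP-positive arrays, against 6.07, 6.05 and 6.59 in WT EGFP-positive arrays (difference 3.28, SE 0.17, limma adjusted p = 7.5e-05). Ncapd2 and Ncaph rose by 2.79 and 2.65. Smc2 stood at 10.74, 10.76 and 10.90 in mutant arrays, against 8.59, 8.66 and 8.80 in WT arrays (difference 2.11, adjusted p = 7.7e-05). Smc4, the partner of Smc2 in the same ring, stood at 11.97, 11.73 and 11.86 in mutant arrays, against 12.44, 12.44 and 12.34 in WT arrays. It fell by 0.55 (SE 0.11, adjusted p = 0.016, 95% interval -0.81 to -0.29), and all 3 mutant arrays lay below all 3 WT arrays. Its other probe sets differed in the same direction, by -0.71 (adjusted p = 0.054) and -1.01 (adjusted p = 0.0026). The call was lost without WT replicate 1 (adjusted p = 0.065) or without mutant replicate 2 (0.063), and the direction held under the scaling alternatives. Smc2 and Smc4 are also subunits of condensin II, of whose 3 further genes Ncapg2 rose by 2.86 and Ncaph2 by 0.55, while Ncapd3 differed by 0.12 (limma adjusted p = 0.70). Outside condensin, Top2a, the topoisomerase that disentangles sister chromatids, rose by 2.76, and Mki67, the Ki-67 antigen of dividing cells, stood at 11.95, 11.94 and 12.09 in mutant arrays, against 9.45, 8.69 and 9.99 in WT arrays (difference 2.62, adjusted p = 0.0012).

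**Figure D3:**
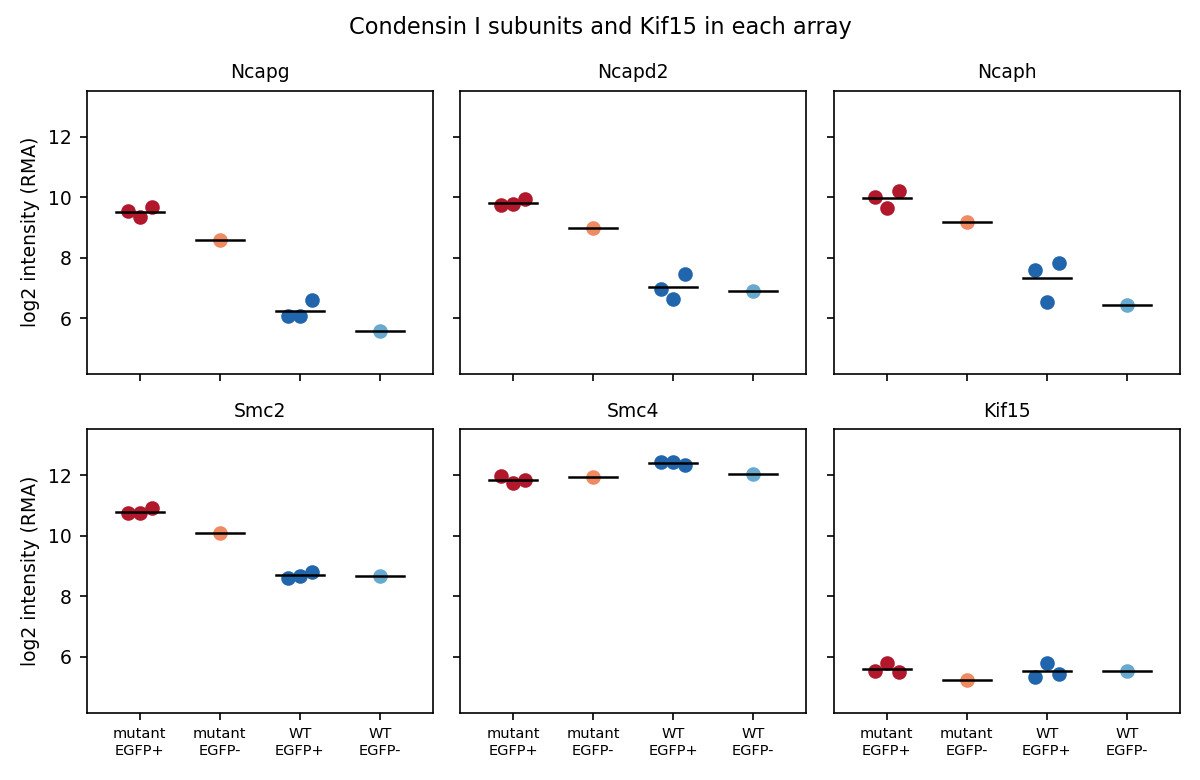
Log2 intensity of the 5 condensin I genes and Kif15 by group (points, arrays; lines, group means), on a common axis. Ncapg, Ncapd2, Ncaph and Smc2 are highest in mutant EGFP-positive cells, whereas Smc4 is lower there (11.86) than in WT EGFP-positive cells (12.41) and Kif15 overlaps.

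The 4 genes of anaphase onset rose. Cdc20, the activator of the anaphase-promoting complex, stood at 10.76, 10.49 and 11.03 in mutant EGFP-positive arrays, against 8.44, 8.03 and 8.35 in WT EGFP-positive arrays (difference 2.48, adjusted p = 0.00022). Ube2c, its ubiquitin-conjugating enzyme, rose by 2.97, and Espl1 (separase), which cuts cohesin, by 2.28. Pttg1 (securin), the inhibitor of separase, stood at 12.62, 12.66 and 12.70 in mutant arrays, against 11.26, 10.68 and 11.62 in WT arrays (difference 1.47, adjusted p = 0.0049). Depdc1a, a coregulator found in dividing cells, stood at 8.05, 8.15 and 8.01 in mutant arrays, against 4.34, 4.06 and 4.37 in WT arrays. Its difference of 3.82 (SE 0.12, adjusted p = 1.4e-05) rests on WT values under the median of all probe sets, so no fold is given. With 16 added to each intensity the difference was 3.02, and 8 members had larger ones, among them Ccna2 (3.22) and Bub1 (3.20).

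Further probe sets existed for 33 of the 49 genes, 62 in all. Of these 57 differed in the same direction as the probe set used, and 39 were called higher in mutant cells. The exceptions in sign were 1 probe set each of Aurka (-0.06), Nek2 (-0.07) and Racgap1 (-0.12) and both of Cenpa. With all probe sets of a gene averaged, 10 members that stayed called had log2 differences over 1.5 times smaller, from 1.12 to 2.36. Aurka then differed by 1.12 (2.31 with its brightest probe set), Nek2 by 1.14 (2.96), Tpx2 by 1.47 (3.12) and Bub1 by 2.36 (3.55).

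The members varied more among WT than among mutant EGFP-positive arrays. Their SD had a median of 0.16 in the mutant group and 0.44 in the WT group, against 0.15 and 0.16 over all probe sets, and 43 of the 49 genes had the larger SD in the WT group, as did 53.6% of all probe sets. WT replicate 2 was the lowest WT EGFP-positive array for 45 genes, as in 34.1% of all probe sets, and replicate 3 the highest for 43, as in 31.2%. Replicate 3 minus replicate 2 had a median of 0.84 over the members, with Nusap1 at 1.98 and Birc5 at 1.80. In the mutant group replicate 2 was lowest and replicate 3 highest for 32 genes each, as in 33.5% and 35.2% of all probe sets. The mean of 23 handling-stress genes (immediate-early and heat shock) moved alongside in WT replicates 1, 2 and 3 (10.80, 9.84 and 10.82), but stood at 9.95, 9.89 and 8.92 in mutant replicates 1, 2 and 3. Between the EGFP-positive groups 7 of these 23 genes fell and 1 rose in mutant cells (median -0.93), with the heat shock genes Hspa1b (-3.45) and Dnajb4 (-2.85) and the immediate-early gene Ier3 (2.12). Of all 18193 genes 1096 fell and 1897 rose. Csf1r, a myeloid receptor, read 8.36, 6.81 and 9.85 in WT replicates 1, 2 and 3. The mean of the 9 myeloid markers was 5.71 to 6.08 in the mutant and 5.80 to 6.83 in the WT EGFP-positive group. Of these markers 7 were lower and 2 higher in mutant than in WT EGFP-positive arrays (median -0.38), and 0 passed limma's adjusted test. The part of handling and of other cells in this spread, or in the members' rise, was not tested.

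Other cell types in the gate were read by their markers. Cd8a stood at 8.50, 8.84 and 5.95 in mutant EGFP-positive arrays, against 6.36, 5.22 and 6.29 in WT EGFP-positive arrays. Cd8b1, the other CD8 marker, stood at 6.82, 7.41 and 6.56 in mutant EGFP-positive arrays, against 6.86, 6.66 and 7.13 in WT EGFP-positive arrays, and neither passed limma's adjusted test. The mean of the 5 immature thymocyte markers was 5.65 to 5.81 in the mutant and 5.84 to 5.91 in the WT group, that of the 6 B cell markers 5.46 to 5.69 and 5.64 to 6.10, that of the 5 plasma cell markers 6.63 to 7.20 and 7.21 to 7.98, and that of the 3 NK cell markers 5.42 to 5.65 and 4.97 to 5.27. Eomes, a factor of NK and effector T cells, rose by 0.91 (limma adjusted p = 0.026). The other 2 NK cell markers did not pass, and the median difference of the 3 was 0.08, with 0.05 the lowest. The leading numbers of the sample titles fall into 3 ranges, each with 1 array of both EGFP-positive groups, whose meaning is not stated. Within them the members' median difference was 2.53, 3.07 and 2.35, with 48, 47 and 48 of 49 genes above 0.

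Comparing the EGFP-negative arrays asks whether the allele difference extends to CD4+ cells without the reporter. With 1 array each there is no test and no replicate check. The mutant EGFP-negative array exceeded the WT EGFP-negative array in 47 of the 49 genes, by at least 2-fold in 44, whereas 2.82% of all probe sets were at least 2-fold higher and 1.72% lower. The median difference was 2.45, against 0.00 for all genes. Cdca8 stood at 10.14 in the mutant and 6.71 in the WT EGFP-negative array (difference 3.43, the largest), and Ttk differed by 3.40. Kif15 at 5.23 and 5.52 and Smc4 at 11.96 and 12.05 were the lowest (-0.29 and -0.09), and Bora differed by 0.0049. Mki67 stood at 11.28 in the mutant and 8.11 in the WT EGFP-negative array. Other lists also differed between these 2 arrays. The mean of the 6 Treg markers was 8.62 in the mutant and 6.66 in the WT EGFP-negative array. The mean of the 3 NK cell markers was 6.30 in the mutant and 5.09 in the WT EGFP-negative array, with Eomes at 8.73 and 6.25, and that of the 2 CD8 markers 8.05 and 6.98, with Cd8a at 8.52 and 6.28. The handling-stress mean was 9.50 in the mutant and 9.99 in the WT EGFP-negative array. Their part in the members' difference was not tested. Across the 49 genes this difference and that of the EGFP-positive groups, which share no array, correlated at r = 0.89, given as a description, since genes share arrays and are not independent replicates.

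**Figure D4:**
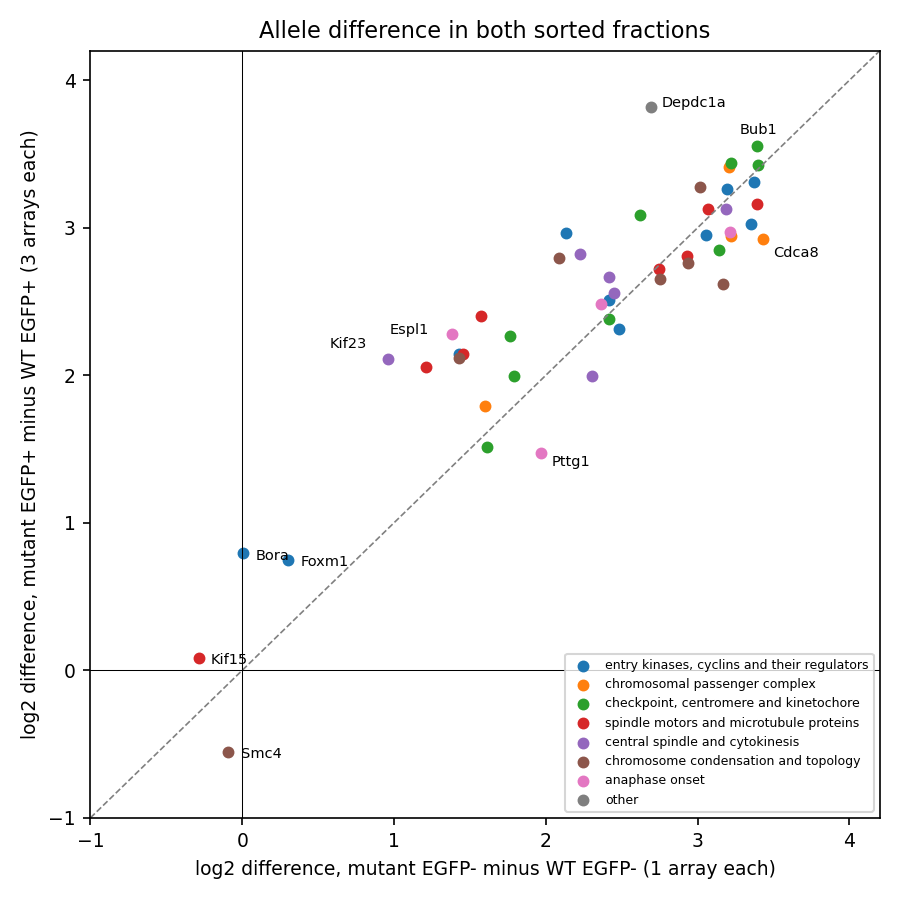
Log2 difference between alleles in EGFP-positive cells (vertical, 3 arrays each) against that in EGFP-negative cells (horizontal, 1 array each) for the 49 genes, coloured by role, with the line of equal difference dashed. Most genes lie near the line between 1 and 3.5 on both axes; Smc4, Kif15, Bora and Foxm1 lie near the origin, and Kif23 and Depdc1a lie above the line.

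The mutant EGFP-negative array stood above all 3 WT EGFP-positive arrays in 47 genes, as in 30.5% of all probe sets, and below all 3 mutant EGFP-positive arrays in 48, as in 29.5%. Both held for 47 genes and for 6.14% of all probe sets. By group means 43 of the 49 genes ran in the order mutant EGFP-positive, mutant EGFP-negative, WT EGFP-positive, WT EGFP-negative from high to low, as did 7.99% of all probe sets. The first gap, between mutant EGFP-positive and EGFP-negative cells, and the last, between the WT fractions, rested on single EGFP-negative arrays, assumed to vary like the replicated groups. Both EGFP-negative arrays have title numbers in the lowest of the 3 ranges, while each EGFP-positive group spans all 3. These gaps therefore mix sort fraction with range. With the range fitted as a block the members' median gap was 0.87 in the mutant and 0.78 in the WT allele, against 0.83 and 0.71 without it.

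Within the mutant allele 48 of the 49 genes were higher in EGFP-positive cells, with a median difference of 0.83, but 1 passed limma's adjusted test (25 had an unadjusted p under 0.05). Over all probe sets 0.0755% were called, 0.0178% higher and 0.0577% lower. An unadjusted p under 0.05 by limma was found for 4381 of the 45037 probe sets. Depdc1a stood at 8.05, 8.15 and 8.01 in mutant EGFP-positive arrays, against 6.50 in the mutant EGFP-negative array (difference 1.57, SE 0.18, adjusted p = 0.042). The call was lost when any EGFP-positive array but WT replicate 2 was left out (adjusted p 0.11 to 0.16), and over all alternatives the adjusted p ranged from 0.019 to 0.36. Nek2 differed by 1.30 (adjusted p = 0.099), and the lowest were Smc4 (-0.10) and Kif23 (0.21).

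In the wild-type allele 45 of the 49 genes had a higher mean in EGFP-positive than in EGFP-negative cells, with a median difference of 0.71, and 0 passed limma's adjusted test (17 had an unadjusted p under 0.05). Over all probe sets 1.1% were called, 0.706% higher and 0.395% lower. Of the 45037 probe sets 4236 had an unadjusted p under 0.05 by limma. Mki67 stood at 9.45, 8.69 and 9.99 in WT EGFP-positive arrays, against 8.11 in the WT EGFP-negative array (difference 1.27, adjusted p = 0.34), and Cdca8 differed by 1.26. Without WT EGFP-positive replicate 2, the lowest array for most members, 13 genes passed, among them Mki67, Cdca8, Birc5, Ccnb2, Ttk and Ube2c, with 2.65% of all probe sets called. At the other end Kif23 stood at 7.93, 7.09 and 8.32 in EGFP-positive arrays, against 8.73 in the EGFP-negative array (difference -0.95, adjusted p = 0.52), and Bora differed by -0.34.

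The interaction asks whether the step between EGFP-negative and EGFP-positive cells differs between alleles, mutant minus WT. Of the 49 genes 0 passed limma's adjusted test (4 had an unadjusted p under 0.05), with 0.04% of all probe sets called, 0.0155% higher and 0.0244% lower. By limma 2766 of the 45037 probe sets had an unadjusted p under 0.05. The median was 0.11, with Kif23 (1.15) and Depdc1a (1.12, adjusted p = 0.36) highest and Mki67 (-0.55) and Cdca8 (-0.50) lowest. With single arrays left out the median ranged from -0.10 (without WT replicate 2) to 0.31 (without WT replicate 3). It was -0.02 without mutant replicate 3, 0.26 without mutant replicate 2 and 0.18 without WT replicate 1. These comparisons share arrays with each other, so their values are set side by side only.

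Other lists of the pathway give the surroundings of the 49 genes in EGFP-positive cells. Each list is to be read beside all 18193 genes, of which 1897 rose and 1096 fell. Of 33 other kinetochore and centromere genes 26 rose and 0 fell in mutant cells, with a median of 1.26, led by Cenpk (3.28), Spc25 (3.28) and Kntc1 (3.16). Of 27 other kinesins and spindle proteins 19 rose and 2 fell (median 1.01), with Aspm (3.09), Spag5 (2.61) and Ckap2 (2.53). The 2 that fell were Kif1b, a transport kinesin, which fell by 1.55, and Numa1, a spindle pole protein, which fell by 0.56. In the list of cohesin, the ring that holds sister chromatids together, 2 of 11 rose and 1 fell (median 0.10). Those that rose were the S phase acetyltransferase Esco2 (3.80) and the cohesin protector Cdca5, sororin (3.74), and Nipbl, the cohesin loader, fell by 0.63.

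Of 15 genes of the anaphase-promoting complex and its regulators 6 rose and 0 fell (median 0.38), with the inhibitor Fbxo5 at 1.90, the activator Fzr1 at 0.98 and the enzyme Ube2s at 0.94. Of 16 other entry regulators and phosphatases 10 rose, among them Pbk (7.98-fold), Cks1b (2.47) and Ccnf (2.28). Of 9 measured other cytokinesis genes 2 rose, Cep55 (3.32) and Arhgap11a (2.66), against 1897 of all 18193 genes. In the list of MuvB, pocket proteins and their partners 6 of 19 rose and 0 fell (median 0.31), namely E2f8 (2.81), E2f7 (2.50), Mybl2 (2.47), which encodes B-Myb, Tfdp1 (1.78), E2f1 (1.53) and E2f2 (0.57).

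DNA replication genes, which act a stage earlier, rose in 28 of 31 (median 1.74), with Tk1 (3.24), Cdc6 (2.91) and Cdc45 (2.86). Of 16 G1 cyclins and CDK inhibitors 8 rose and 1 fell (median 0.68), with the inhibitor Cdkn2b (2.48) and the cyclins Ccne2 (2.30) and Ccne1 (2.18). The inhibitor p27, Cdkn1b, fell by 1.37. The medians of these lists are descriptions, and their differences from the 49 genes were not tested.

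**Figure D5:**
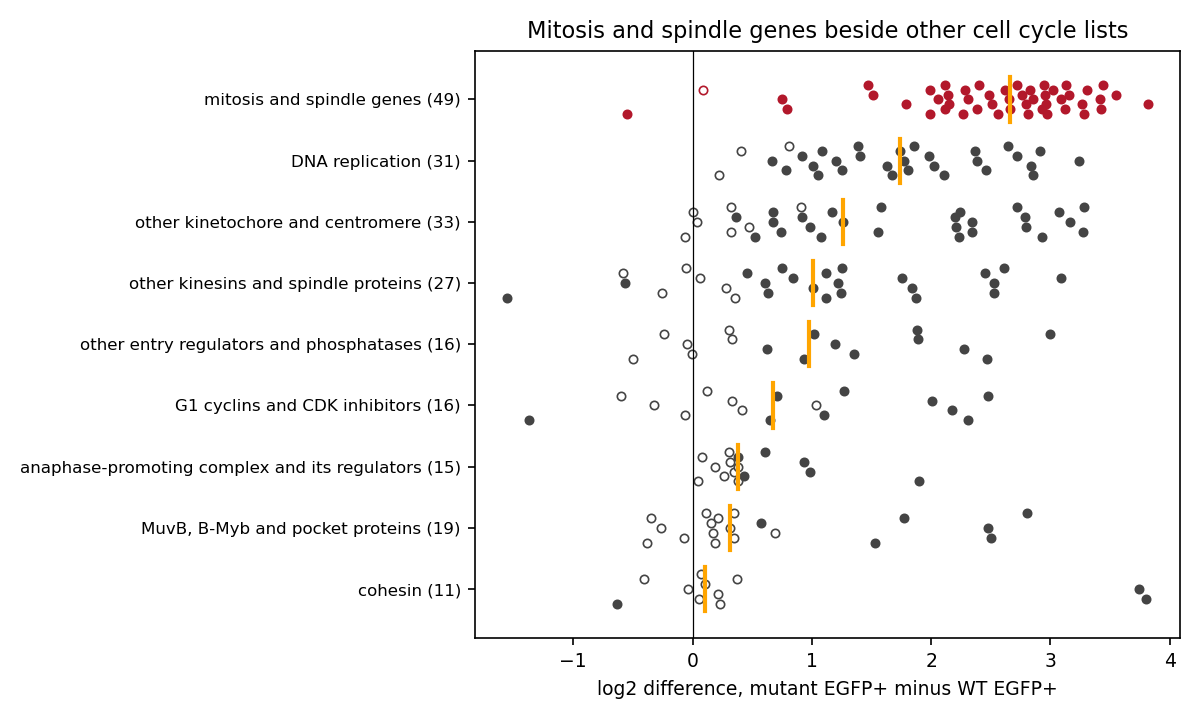
Log2 difference between mutant and WT EGFP-positive cells for each gene (points; filled, passed the test) of the mitosis and spindle genes (red) and of other cell cycle lists (grey, number of genes in brackets), with list medians in orange. The median is 2.66 for the mitosis and spindle genes, 1.74 for DNA replication and 0.10 for cohesin, where Esco2 and Cdca5 stand apart at 3.80 and 3.74.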

How the data were processed

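Gene expression was measured on 8 Affymetrix arrays of sorted mouse CD4+ T cells. The labels' protocols name RNEasy for the extraction. Each deposited value is a linear intensity of a probe set, which the authors obtained by RMA (per the submitters' processing notes). The sources used here do not give its version. Log2 was taken without a pseudocount. The file held 45101 probe sets, and 64 control probe sets were left out. By the platform annotation 34945 probe sets had 1 symbol (34741 matched a current RefSeq record), 932 had several and 9160 had none. A mean per group was fitted to all 8 arrays with limma 3.58.1 (R 4.3.3), with 4 residual and 3.72 prior degrees of freedom. Two-sided p-values were adjusted by Benjamini and Hochberg's method over the 45037 probe sets, and the lone EGFP-negative arrays borrowed the spread of the replicated groups. Median intensity per array was 53.3 to 54.7. The fit was also run on simulated data with independent arrays and 1 spread per probe set in all groups. The members had unequal spreads in the mutant and WT groups, so that run does not test the fit for them. A fold is printed only where both means exceeded the overall median level. RMA compresses low intensities, so differences from low values may be understated.

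Members, lists and the rule for named genes (all members between the EGFP-positive groups; otherwise those past the threshold and the 2 highest and 2 lowest; up to 3 genes of other lists) were chosen with earlier results of these data known. The genes singled out among cell type markers were chosen after their values were seen. Alternatives were a pseudocount of 16, quantile normalization, a filter on dim probe sets, the mean of a gene's probe sets, an intensity trend, the title-number ranges as a block, only the EGFP-positive arrays, and arrays left out.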

Additional observations from a re-analysis of the deposited data

How the results depend on the processing

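Between mutant and WT EGFP-positive cells 45 of the 49 genes were called higher under each alternative run. The run with only the EGFP-positive arrays could not differ from the fit reported, since a lone EGFP-negative array adds nothing to the spread. The number higher was 46 with the mean of all probe sets of a gene and with each single array left out, and the number lower 0 to 1 with single arrays left out (0 when replicate 1 of the WT or replicate 2 of the mutant cells was absent). The others were Bora, Cenpa and Smc4, described above, and Kif15. The Kif15 difference turned to -0.0048 without WT replicate 1 and to -0.0056 without mutant replicate 2, and was 0.28 without WT replicate 2 and mutant replicate 3 together; the cause was not tested. Within the WT allele the number higher was 1 with the mean of all probe sets (Melk), 0 to 13 with single arrays left out (13 without WT replicate 2) and 17 without WT replicate 2 and mutant replicate 3 together. Over all features 2% of genes, 2.65% and 4.1% of probe sets were called in the settings with 1, 13 and 17, against 1.1% in the fit reported. Within the mutant allele it was 0 with dim probe sets left out, 0 with the replicate block by title-number range, 0 to 2 with single arrays left out (2 without WT replicate 2) and 3 without both of those arrays, with 0.187% and 0.722% of probe sets called in the settings with 2 and 3. Leaving out WT replicate 2 kept the members' median difference within the mutant allele at 0.83. WT arrays enter that comparison only through the shared spread, so there the number passing moved without a change in the differences. The cause of the other shifts was not tested. The median interaction was -0.22 without both.

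The title numbers were not taken to pair the arrays, since deviations within a range correlated at 0.12, 0.05 and -0.10 over all probe sets. Over the members alone replicate 2 had the lowest mean and replicate 3 the highest in both EGFP-positive groups (9.73, 9.59 and 9.84 in mutant replicates 1, 2 and 3, 7.31, 6.75 and 7.63 in WT ones). With the block 47 genes were higher and 1 lower between the EGFP-positive groups. Probe sets called there numbered 5734, but 3355 without WT replicate 1, 3356 without mutant replicate 1, 3716 without mutant replicate 2, 7556 without WT replicate 2 and 7972 without WT replicate 2 and mutant replicate 3. With probe sets averaged 3495 of 18193 genes were called, 19.2% against 12.7% of probe sets. No detection call was used, and 3 or 1 arrays per group limit the precision.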
